A study of Mus musculus with 12 samples.

Results

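The left ventricles compared here came from mice that had sham surgery, meaning the same operation without ligation of a coronary artery, and were taken 4 weeks later. The comparison asks which transcripts differ when cardiomyocytes lose miR-150 in a heart that has no infarct. Of the 12 arrays of the series, the 6 whose labels give sham surgery were used. Of these, 3 were from miR-150 cKO mice, which carry floxed miR-150 alleles and the alpha-MHC-Cre transgene, and 3 were from miR-150 fl/fl mice, which carry the floxed alleles without Cre. All were C57BL/6J mice, and each genotype had 1 male and 2 females. The miR-150 cKO mice were 15, 14 and 15 weeks old for replicates 1, 2 and 3, and the miR-150 fl/fl mice were 14, 14 and 13 weeks old. The alpha-MHC promoter is active in cardiomyocytes, so other cells of these hearts kept their miR-150. No group carried Cre without floxed alleles, so the effect of the transgene and that of miR-150 loss cannot be told apart.

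Each array is 1 mouse, read in 1 colour as the brightness of each spot. Values are given as log2 signal relative to the 75th percentile of the same array, so that a difference of 1 is a doubling, and a difference always means miR-150 cKO minus miR-150 fl/fl. The 6 arrays were scanned as parts of a single slide. Its row 1 held the 3 miR-150 fl/fl arrays and replicate 1 of miR-150 cKO, and its row 2 held replicates 2 and 3 of miR-150 cKO. The share of probes well above background was 90.3% for miR-150 cKO replicate 1, 74.0% and 76.0% for replicates 2 and 3, and 83.7% to 85.1% for the 3 miR-150 fl/fl arrays. Array row therefore moves with genotype for 5 of the 6 arrays. The value with slide and row as a block, which equals miR-150 cKO replicate 1 minus the miR-150 fl/fl mean, is called the row 1 difference below. It sets 1 miR-150 cKO heart against 3 controls, and its calls assume that this heart varies as the arrays of the other groups do.

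MicroRNAs are short RNAs that guide a silencing complex to messenger RNAs, chiefly through a seed at bases 2 to 8, and lower the stability and translation of what they bind. miR-150 is best known from lymphocytes, where it limits Myb, and it is also made in cardiomyocytes. The deleted gene, Mir150, gives the arms mmu-miR-150-5p and mmu-miR-150-3p. The study uses the name miR-150 for the 5p arm, whose mature sequence and seed are not shown here. The mature sequence of the 3p arm is shown because it is part of what the floxed alleles remove. It lies at chr7:45121798-45121819 on the plus strand of GRCm38.p6, is taken from RefSeq, and has its seed in capitals.
mmu-miR-150-3p: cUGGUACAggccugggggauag
The arrays read long transcripts, and the level of miR-150 itself is not analysed here.

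Of the 54225 probes tested, sham miR-150 cKO had 345 higher and 1149 lower past the limits, which require a 1.5-fold difference or more together with an unadjusted limma p below 0.05. These are 0.636% and 2.12% of the probes. After Benjamini-Hochberg adjustment over all probes 0 were called (0%), against 4977 with an unadjusted p under 0.05, and the unpaired 2-tailed test also gave 0 after adjustment, with 2614 unadjusted. The smallest adjusted p in limma was 0.171. All 3 miR-150 cKO arrays were above all 3 miR-150 fl/fl arrays for 5.04% of probes and below them for 5.73%, and an exact permutation test of 3 against 3 mice cannot go below a p of 0.1. Every difference that follows is therefore past the unadjusted limits at most, and rests on 3 mice per genotype. The limma p values weigh a difference against a spread estimated from all arrays of the series, including those not compared here. With the 6 sham arrays alone, 2714 probes had an unadjusted limma p under 0.05, against 4977 in the reported fit.

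The 2 directions differed in how bright their transcripts were. Of the 345 higher probes, 73.3% were well above background on all 6 arrays, compared with 39.2% of the 1149 lower probes and 81.3% of all probes tested. The lower probes had a median difference of -0.39 on miR-150 cKO replicate 1, the array in row 1, and of -1.15 and -0.87 on replicates 2 and 3 in row 2. For the higher probes the 3 medians were 0.64, 0.97 and 0.78. The block for slide and row gave 609 higher and 167 lower probes, and quantile normalization, which gives all arrays the same distribution, gave 452 and 765. The part of array row in the lower probes was not tested.

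The files give probe numbers without genes, and names were obtained for 892 probes by matching a supplementary list of differing transcripts to the deposited values. How a name arose decides what its value can show. The list of transcripts that differ between the genotypes in sham names 79 as higher and 54 as lower, and these were chosen on the same 6 arrays, so their values describe the arrays and support nothing. The list of transcripts that differ between the genotypes after myocardial infarction (MI) names 427 as higher and 265 as lower, and was chosen on 6 other arrays. The list that sets MI against sham in miR-150 fl/fl mice used the 3 sham miR-150 fl/fl arrays, so its names also lean on this comparison. Of the 79 names 58 passed the limits as higher, and of the 54 names 46 passed as lower.

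Several genes of the stressed heart were among the higher transcripts. Ventricular cardiomyocytes under load return to genes of the fetal heart, among them the natriuretic peptides and the slow myosin heavy chain. Of 20 such stress genes listed, 11 had a named transcript. Of these, 8 were higher past the limits and 0 lower, beside 0.636% and 2.12% of all probes. The median difference was 0.97 against -0.03 over all probes tested. The sham list, chosen on these arrays, holds 5 of the 11, namely Nppb, Nppa, Sprr1a, Ankrd1 and Tnnt3. The 6 MI arrays named 9 of the 11, and 6 of those 9 were higher past the limits in sham.

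Nppb, which encodes B-type natriuretic peptide, read 6.13, 5.80 and 5.33 in the 3 miR-150 cKO hearts and 2.99, 3.65 and 3.65 in the 3 controls. The gene was named only by lists that used sham arrays compared here, so its values describe those arrays. The groups did not overlap, and the lowest miR-150 cKO heart was well above the highest control. The difference was 2.33 (SE 0.32), or 5.02-fold, with a limma adjusted p of 0.298, the smallest of any named transcript. It was 2.70 as the row 1 difference, between 2.11 and 2.54 when any 1 sham array was left out, and past the limits in all 19 alternative ways of processing that the closing section lists. The mean of the sham miR-150 cKO hearts, 5.75 ± 0.40 (SD, n = 3), stood beside 4.68 ± 0.40 in miR-150 fl/fl hearts after MI, a pair of groups that was not tested.

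Nppa, for atrial natriuretic peptide, read 5.82, 6.55 and 5.02 against 3.36, 3.89 and 4.15. Again each miR-150 cKO heart was above each control. The difference was 2.0 (SE 0.35), or 3.99-fold, and 2.02 as the row 1 difference. The 2 natriuretic peptide genes are neighbours on chromosome 4 and their products act on the kidney and vessels to unload the heart.

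Sprr1a encodes a small proline-rich protein known from skin and from injured cardiomyocytes and neurons, and is the gene that the study followed as a target of miR-150. It read 1.45, 0.82 and -0.16 against -1.40, -1.04 and -1.40. The miR-150 cKO hearts were spread over more than the controls, and the lowest of them was still above the highest control. The difference was 1.99 (SE 0.40), or 3.96-fold, and 2.74 as the row 1 difference. Nppa and Sprr1a were past the limits in all 19 alternatives.

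The regions around the starts of these 3 genes are shown as examples. These 3 genes had all 3 miR-150 cKO hearts above all 3 controls and were past the limits in all 19 alternatives. Other transcripts given below, such as Postn and Col8a1, also met these conditions. Each is a window of 300 bases around the RefSeq start, 5′ to 3′ on the gene's strand of GRCm38.p6. Nppb lies at chr4:147985650-147985949 on the plus strand, Nppa at chr4:148000472-148000771 on the plus strand and Sprr1a at chr3:92485832-92486131 on the minus strand. Capitals mark matches on either strand to CATTCC, the M-CAT element that TEAD factors bind, and to TGAGTCA, the AP-1 element. These 2 motifs do not overlap here and were chosen after the sequences were seen.
Nppb: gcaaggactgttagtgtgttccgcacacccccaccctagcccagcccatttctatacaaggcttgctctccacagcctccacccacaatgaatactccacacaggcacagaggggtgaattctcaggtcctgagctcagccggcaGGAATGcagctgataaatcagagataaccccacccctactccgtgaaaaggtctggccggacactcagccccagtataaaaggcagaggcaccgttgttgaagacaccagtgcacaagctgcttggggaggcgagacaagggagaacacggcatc
Nppa: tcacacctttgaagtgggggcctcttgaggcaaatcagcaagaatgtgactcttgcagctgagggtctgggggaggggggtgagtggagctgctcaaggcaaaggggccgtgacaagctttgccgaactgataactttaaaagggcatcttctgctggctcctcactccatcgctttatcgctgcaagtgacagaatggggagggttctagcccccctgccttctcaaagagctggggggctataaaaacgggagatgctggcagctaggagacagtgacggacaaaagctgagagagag
Sprr1a: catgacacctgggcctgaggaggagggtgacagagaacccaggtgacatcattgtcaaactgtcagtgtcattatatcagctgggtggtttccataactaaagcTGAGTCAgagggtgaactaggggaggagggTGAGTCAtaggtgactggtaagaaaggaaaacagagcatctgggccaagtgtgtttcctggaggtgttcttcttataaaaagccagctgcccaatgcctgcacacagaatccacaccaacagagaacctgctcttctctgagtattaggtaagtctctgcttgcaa
The Nppb window held 1 match to CATTCC, which 14.7% of the 32851 windows in the table hold, and the Sprr1a window held 2 matches to TGAGTCA, which 5.2% hold. The Nppa window held neither. A match is a run of letters and says nothing of binding in these hearts.

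Myh7, the slow beta myosin heavy chain that the adult mouse ventricle largely replaces with the alpha form, was named from the MI arrays and not from sham. It read 7.78, 7.85 and 6.19 in miR-150 cKO and 3.83, 6.23 and 4.97 in miR-150 fl/fl. The groups overlapped by a small margin, with the lowest miR-150 cKO heart just under the highest control. The difference was 2.26 (SE 0.56), or 4.80-fold.

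Ankrd1, a titin-binding protein of the sarcomere that responds to stretch, read 9.14, 10.01 and 9.24 against 8.27, 8.99 and 8.22, a difference of 0.97 (SE 0.26). Gdf15, a secreted stress cytokine named from the MI arrays, read 1.88, 2.02 and 1.16 against 0.92, 1.03 and 0.70, a difference of 0.80 (SE 0.24) that was past the limits in all 19 alternatives. In neither gene did the groups overlap. Mybpc2, the fast skeletal form of myosin-binding protein C, differed by 0.87 (SE 0.37) with overlapping groups. Tnnt3, the fast skeletal troponin T, was not well above background on any miR-150 fl/fl array. It was so on 1 miR-150 cKO array, and no fold is given for it. The other 3, which are the skeletal actin gene Acta1, Hamp2 and Clu, had differences of 0.81, 0.40 and 0.21 and did not pass. Acta1 read 2.63 in miR-150 cKO replicate 2, and the other 5 hearts lay between -0.24 and 1.48.

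**Figure D1:**
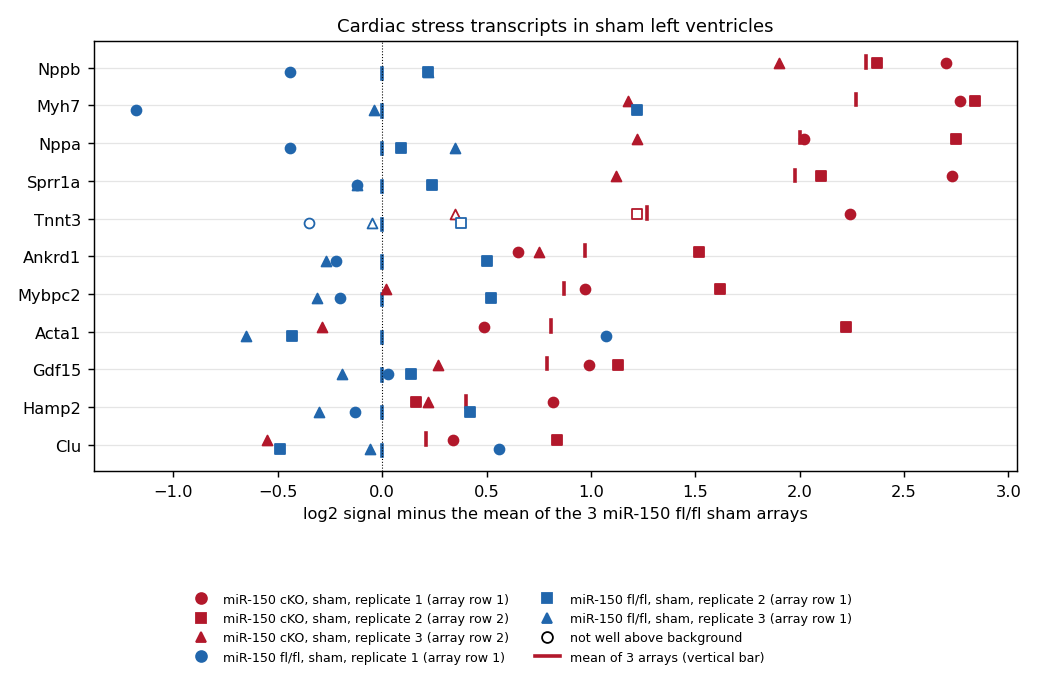
Log2 signal of the 11 named cardiac stress transcripts in each sham heart, minus the mean of the 3 miR-150 fl/fl hearts for that transcript (points, 1 heart each, red for miR-150 cKO and blue for miR-150 fl/fl; vertical bars, group means; open points, not well above background). For Nppb, Nppa, Sprr1a, Ankrd1 and Gdf15 the 3 red points lie to the right of the 3 blue points, while Myh7, Tnnt3, Mybpc2, Acta1, Hamp2 and Clu overlap.

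Part of the list of activated cardiac fibroblast genes was higher in miR-150 cKO. These cells appear when resident fibroblasts respond to load or injury, and they secrete collagens and the matricellular proteins that organise them. Of 40 such genes listed, 27 had a named transcript, 14 of these were higher past the limits and 0 lower, and the median difference was 0.67, beside 0.636% higher among all probes. Of the 27, 12 were on the sham list, which was chosen on these arrays. The MI arrays named 6 of the 27, and 1 of those, Comp, was higher past the limits. In left ventricle RNA more cells of a type and more RNA in each such cell cannot be told apart.

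Postn, which encodes periostin, the matricellular protein that marks activated fibroblasts, read 2.24, 0.41 and 1.94 in miR-150 cKO and -1.88, -0.43 and -0.99 in miR-150 fl/fl. Replicate 2 was the lowest of the miR-150 cKO hearts and was above every control. The difference was 2.63 (SE 0.48), or 6.18-fold, and 3.34 as the row 1 difference, and it was past the limits in all 19 alternatives. Cthrc1, a secreted protein of the same cells, read -1.44, -2.74 and -1.63 against -5.68, -2.91 and -4.66, and 1500015O10Rik, the gene now called Ecrg4, read -1.72, -2.82 and -1.87 against -5.56, -3.27 and -6.33. Both were well above background on 1 of 3 miR-150 fl/fl arrays, replicate 2. Their differences of 2.48 and 2.92 were 1.06 and 1.07 with the normexp background correction, which compresses dim values.

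Comp, or cartilage oligomeric matrix protein, was among the 4 genes that the study followed and was named from the MI arrays. It read 3.46, 1.95 and 2.67 in miR-150 cKO and 1.0, 1.83 and 1.11 in miR-150 fl/fl. The groups were separated by the narrow gap between miR-150 cKO replicate 2 and miR-150 fl/fl replicate 2. The difference was 1.38 (SE 0.40), and 2.15 as the row 1 difference.

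The other named members lay closer to the limits. Pamr1, well above background on 2 of 3 miR-150 fl/fl arrays, had a difference of 1.25, Itgbl1 of 1.20, Lrrc17 of 0.91, Serpinf1 (pigment epithelium-derived factor, an inhibitor of vessel growth) of 0.74 and Meox1 (a homeobox factor of activated fibroblasts) of 0.73. Svep1, Tmem119, Ccdc80, Wisp2 (the CCN family member now called Ccn5) and Fstl1 had differences of 0.70, 0.68, 0.67, 0.63 and 0.60. The well known members Ctgf (now Ccn2) and Fn1, fibronectin, did not pass, with 0.74 (SE 0.36) and 0.70 (SE 0.40). Tgfb1, the growth factor that drives the programme in many tissues, had a difference of -0.02.

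All 6 named collagen transcripts had their 3 miR-150 cKO hearts above their 3 miR-150 fl/fl hearts, beside 5.04% of all probes. Of the 6, 4 were higher past the limits, beside 0.636%. The sham list, chosen on these arrays, holds Col1a1, Col1a2 and Col8a1. Col3a1 was named only by the list of MI against sham in miR-150 fl/fl mice, which used these controls. The comparison of genotypes after MI named Col5a2, Col6a1 and Col8a1, and 2 of these were past the limits. Fibrillar collagens I, III and V build the scaffold of the myocardium, and collagen VIII is a network collagen raised in remodelling. Col3a1 read 4.20, 3.78 and 3.57 against 1.24, 3.13 and 2.78. Replicate 1 of miR-150 fl/fl was far below the other controls, and the difference of 1.46 (SE 0.41) was 0.89 without it. Col5a2 read 0.08, -0.51 and -0.32 against -2.72, -0.74 and -1.03, and its difference of 1.25 (SE 0.42) was 0.64 without that same control.

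Col8a1, named by both the sham and the MI arrays, read 4.01, 4.53 and 4.05 against 2.66, 3.60 and 3.11. Its difference of 1.07 (SE 0.26) was past the limits in all 19 alternatives. Col1a2 had a difference of 0.77 (SE 0.27). Col1a1, the partner chain of collagen I, had 0.62 (SE 0.30) and did not pass, and neither did Col6a1 with 0.44.

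Among the proteins that dress and process the collagen scaffold, most differences were also above 0. Of 8 named proteoglycans and glycoproteins, 4 were higher past the limits, beside 0.636% of all probes. Each of those 4 was on a list that used sham arrays compared here, so their values describe these arrays. The comparison of genotypes after MI also named 4 of the 8, and 1 of these was higher past the limits. Eln, for elastin, had a difference of 1.04, of which miR-150 cKO replicate 1 gave most, with a row 1 difference of 1.83. Sdc1 (syndecan 1), Dpt (dermatopontin) and Bgn (biglycan) had 0.70, 0.63 and 0.61, and Dpt is listed as lower in miR-150 cKO after MI. Of 11 named processing genes, 5 were higher and 1 lower past the limits, beside 0.636% and 2.12% of all probes. All of these were likewise on lists that used sham arrays compared here. The comparison of genotypes after MI named 3 of the 11, and 1 of these was higher past the limits. Mmp3, the protease stromelysin 1, read 0.28, 0.15 and 0.14 against -1.38, -0.74 and -0.24, a difference of 0.98 (SE 0.28) past the limits in all 19 alternatives. Loxl2, which crosslinks collagen, Adamts2, which trims its precursor, Ctsk (cathepsin K) and Leprel1 (a prolyl 3-hydroxylase now called P3h2) had 0.69, 0.64, 0.63 and 0.62. P4ha3, a subunit of a prolyl 4-hydroxylase, went the other way with -0.76 (SE 0.25).

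The size of many of these differences depends on a single control heart. In 23 of the 27 matrix transcripts that were higher past the limits, miR-150 fl/fl replicate 1 was the lowest of the 6 hearts, and 13 of the 27 were not past the limits without it. With slide and row as a block 16 of the 27 were past the limits. This control was the male of its group, and the closing section gives the counts with sex as a covariate.

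**Figure D2:**
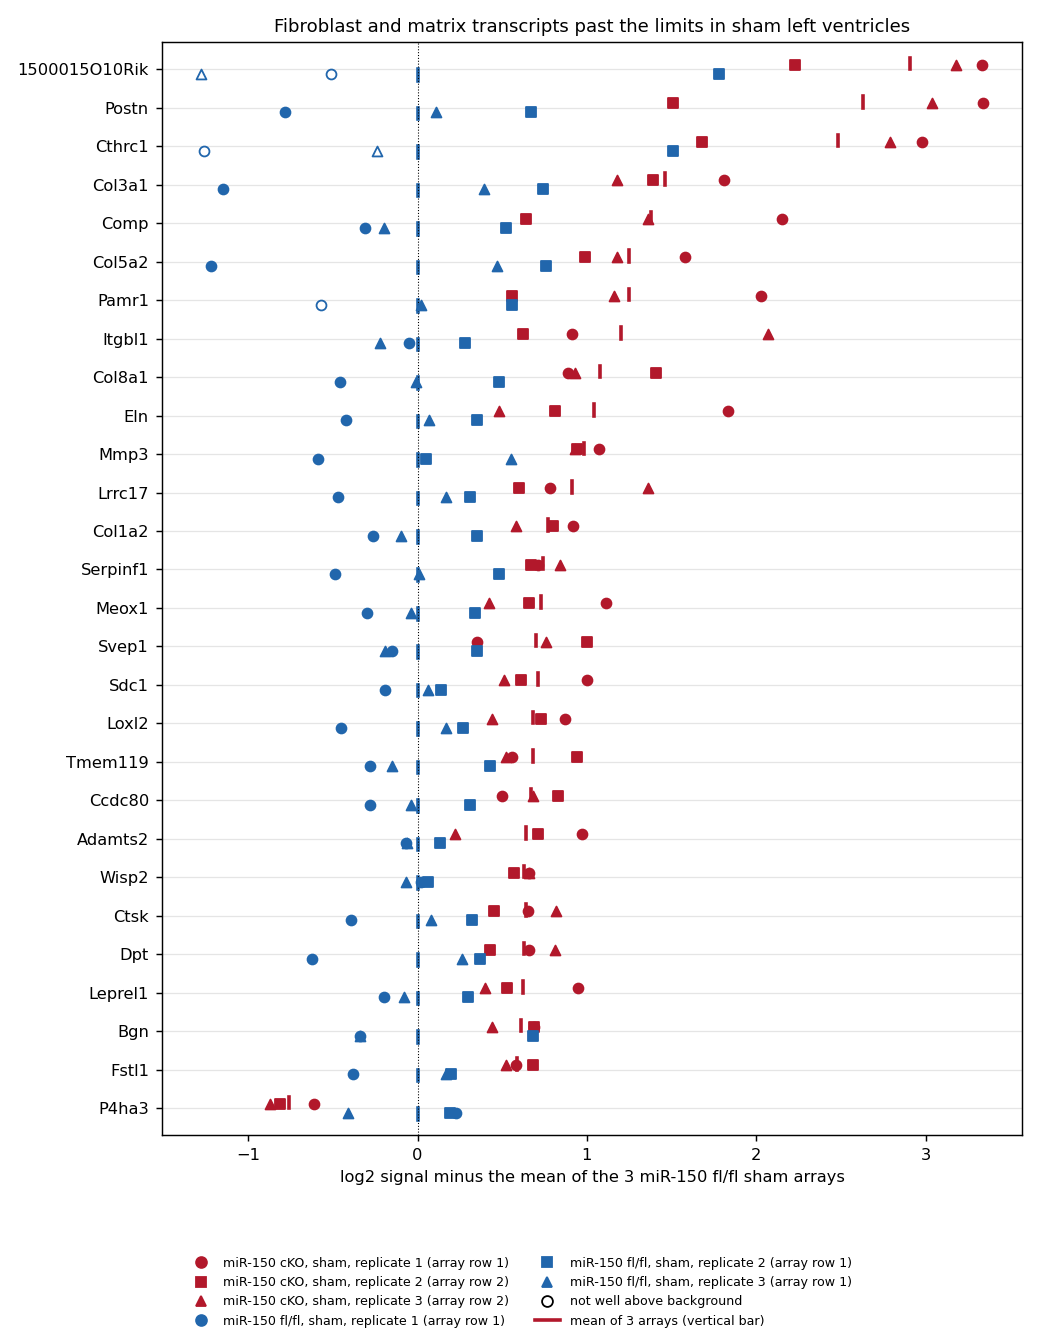
Log2 signal of the fibroblast and matrix transcripts past the limits in each sham heart, minus the mean of the 3 miR-150 fl/fl hearts (points, 1 heart each, red for miR-150 cKO and blue for miR-150 fl/fl; vertical bars, group means; open points, not well above background). Of the 27 higher transcripts Fstl1 has the smallest difference, 0.60, and those of 1500015O10Rik and Cthrc1 rest on 2 controls that were not well above background. P4ha3 is the single lower one, and the blue circle of miR-150 fl/fl replicate 1 is the lowest point in 23 of the 27.

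Leukocyte transcripts made up the other large group on the sham list. The macrophage and monocyte list had 7 of 12 genes named by 8 transcripts, and all 8 were higher past the limits with no overlap between the groups. Each of these names came from the sham list, so the count is a description of how that list was made. The mean log2 signal over the 8 was 0.94, 1.27 and 1.13 in the miR-150 cKO hearts and -0.09, 0.37 and 0.61 in the miR-150 fl/fl hearts. After MI, Lyz2 read 4.46 ± 0.34 in miR-150 cKO and 4.58 ± 0.15 in miR-150 fl/fl (SD, n = 3 each).

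Mpeg1, which encodes the pore-forming perforin 2 of macrophages, read 1.94, 2.18 and 2.08 in miR-150 cKO hearts and 0.22, 1.20 and 1.30 in the controls. The miR-150 cKO hearts were close together and the controls were not. The difference was 1.16 (SE 0.31). Emr1, the gene now called Adgre1 whose product is a classical surface marker of macrophages, read 2.12, 2.16 and 2.09 against 0.98, 1.37 and 1.76, a difference of 0.75 (SE 0.21). Lyz2, lysozyme of myeloid cells, read 4.54, 5.06 and 4.73 against 3.35, 3.85 and 4.37, a difference of 0.92 (SE 0.25). In both the control with the lowest value was again replicate 1.

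Ms4a7, a membrane protein of tissue macrophages, had a difference of 0.93 (SE 0.23) that was past the limits in all 19 alternatives. Clec4n, which encodes the fungal lectin receptor dectin 2, had 2 transcripts on the array with differences of 0.86 and 0.61. Cd14, a coreceptor for bacterial lipopolysaccharide, and Cd86, a costimulatory ligand, had 0.67 and 0.64, with row 1 differences of 0.30 and 0.33.

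Of 14 transcripts of 13 other myeloid genes, 5 passed the limits as higher and 1 as lower, beside 0.636% and 2.12% of all probes. The median difference was 0.56, and 10 of the 14 were on the sham lists, chosen on these arrays. Slamf9 had a difference of 1.1, the monocyte chemokine gene Ccl12 of 0.89, Tlr12 of 0.85, the inhibitory receptor gene Cd300a of 0.80 and Fcrls of 0.76. Hp (haptoglobin), Pilrb1, Plac8 and Lair1 were listed as higher, with 0.61, 0.58, 0.52 and 0.44, and did not pass. Camp, the cathelicidin of neutrophil granules, was lower and read -1.28, -1.61 and -1.71 against -1.19, -0.43 and -0.61. Its difference was -0.79 (SE 0.18).

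The lymphocyte transcripts did not move in a single direction. Cd72, a B cell coreceptor, read -0.64, -0.43 and -0.95 against -1.75, -1.56 and -1.29, a difference of 0.86 (SE 0.17) that was past the limits in all 19 alternatives. Ms4a1, which encodes the B cell antigen CD20, was well above background on 2 miR-150 cKO arrays and 0 miR-150 fl/fl arrays and did not pass. Fcrl1 had 0.09. Foxp3, the factor of regulatory T cells, read 0.46, 0.45 and 0.10 against 0.99, 1.06 and 0.74, a difference of -0.60 (SE 0.14). Cd6, the other lower transcript, was dim and is given with the MI names. Cd4, Klrk1 and Il2ra had 0.23, 0.23 and 0.21 and did not pass.

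Markers of other cells of the ventricle were few among the named transcripts. Of the general fibroblast markers 5 were named (Col1a1, Col1a2, Col3a1, Dpt and Postn), with a mean log2 signal of 2.45, 1.91 and 2.13 in miR-150 cKO and 0.34, 1.42 and 1.07 in miR-150 fl/fl. For cardiomyocytes only Tnnt2, cardiac troponin T, was named, with 2 transcripts at -0.34 (SE 0.16) and -0.29 (SE 0.15) that did not pass and row 1 differences of -0.01 and 0.06. Of the endothelial markers, Icam2, Aplnr and Mmrn2 had 0.19, -0.04 and -0.20. Adipoq, the fat cell hormone adiponectin, varied widely and read -0.48, -2.58 and 0.01 against -3.13, -1.40 and -2.20. Its difference of 1.23 (SE 0.74) did not pass. The other named fat cell markers were Cfd with 0.33, which did not pass, and Plin4 with -0.68, which passed as lower. Fat around the vessels in these samples was not tested. The markers Myh6, Pecam1, Cdh5, Acta2 and Myh11 had no named probe and are not analysed here.

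Of the 14 leukocyte transcripts that were higher past the limits, 13 had their lowest value in miR-150 fl/fl replicate 1, 6 were not past the limits without that heart, and 4 were past them with slide and row as a block.

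**Figure D3:**
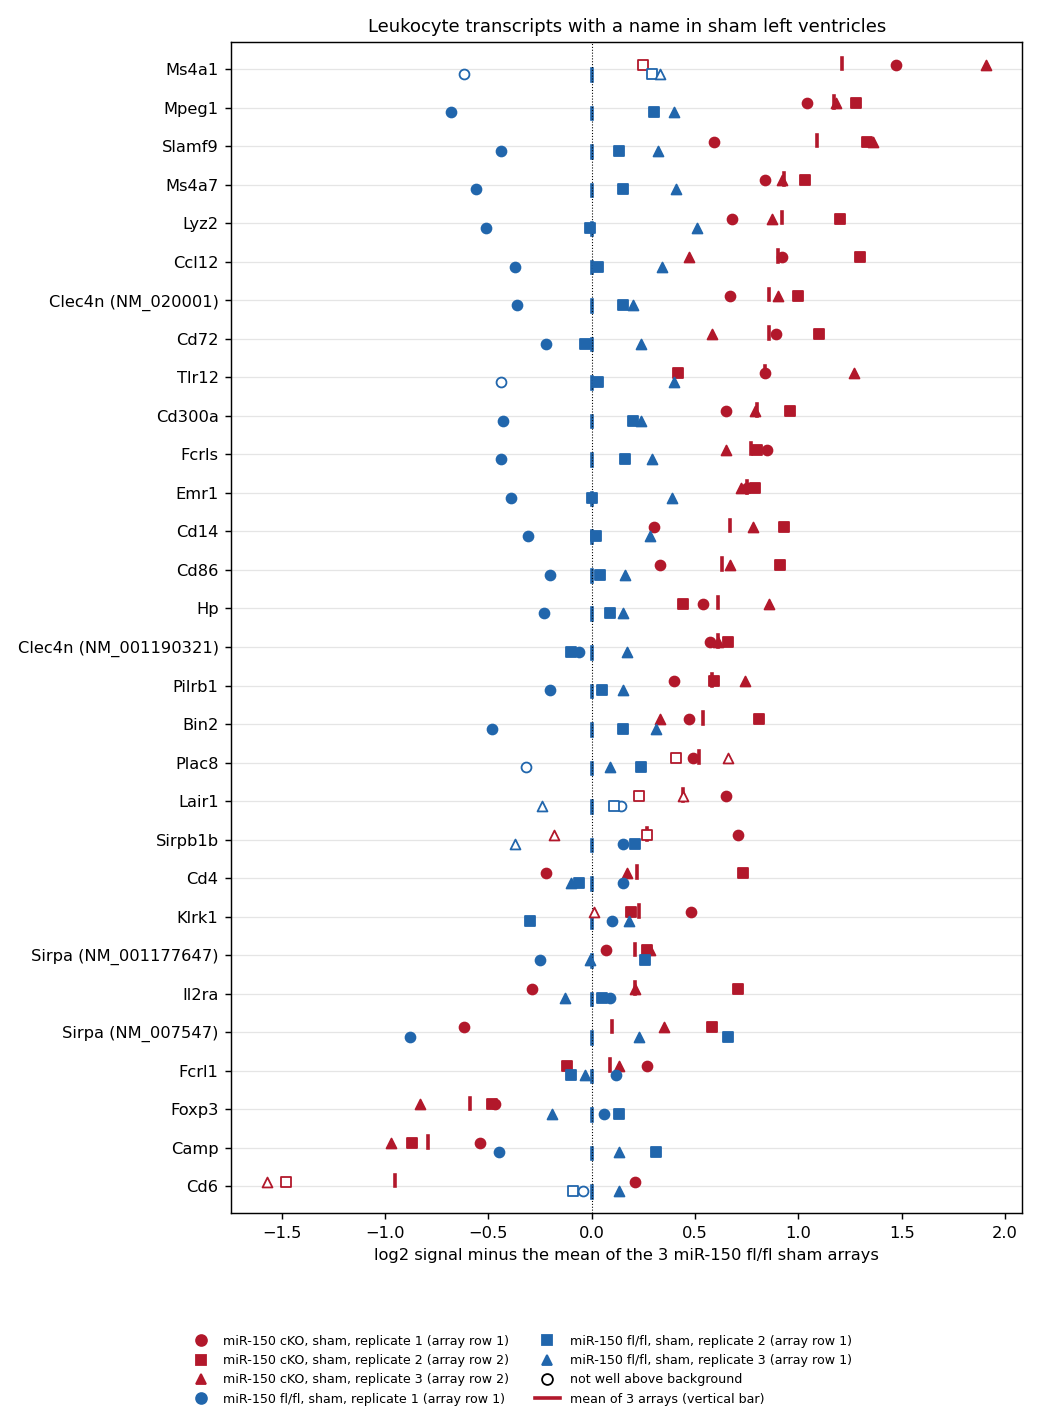
Log2 signal of every named transcript of the macrophage, other myeloid, B cell and T and NK cell lists in each sham heart, minus the mean of the 3 miR-150 fl/fl hearts (points, 1 heart each, red for miR-150 cKO and blue for miR-150 fl/fl; vertical bars, group means; open points, not well above background). The 8 macrophage transcripts have all red points to the right of all blue points, and Foxp3 and Camp have all red points to the left.

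The transcripts lower in miR-150 cKO included some genes of the contractile apparatus, of ion channels and of signalling. The RNA was of the left ventricle, and which cells these differences came from was not tested. In the contractile apparatus, where myosin and actin filaments are held in register by giant proteins and by the costamere, 23 transcripts of 21 genes were named, with a median difference of -0.13. Past the limits, 4 were higher (Myh7, Ankrd1, Mybpc2 and Tnnt3, given above) and 4 lower, beside 0.636% and 2.12% of all probes. Of the 23, 5 were on the sham lists, chosen on these arrays. The MI arrays named 19, and 3 of these were higher and 1 lower past the limits. Myh8, the perinatal myosin heavy chain, was bright and read 5.73, 5.36 and 4.98 in miR-150 cKO against 6.19, 6.48 and 6.06 in miR-150 fl/fl. All 3 miR-150 cKO hearts were lower, and the difference was -0.88 (SE 0.19), with -0.51 as the row 1 difference. Filip1, which interacts with filamin and was named from the MI arrays, had -0.70 (SE 0.21). Fhl1, a LIM protein of the sarcomere, had -0.82, but was well above background on 1 of 3 miR-150 cKO arrays, and the difference was -0.30 with the normexp correction.

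Ion channel genes gave 10 transcripts, with 3 lower and 1 higher past the limits, beside 2.12% and 0.636% of all probes. Of the 10, 4 were on the sham lists, chosen on these arrays. The MI arrays named 8, and 1 of these was lower and 1 higher past the limits. Kcnd2, which encodes the potassium channel Kv4.2 of the transient outward current that starts repolarisation in the mouse ventricle, read -0.99, -1.71 and -1.36 against 0.02, -0.61 and -0.58. The groups did not overlap, the difference was -0.96 (SE 0.21), and this transcript was also on the lower MI list. Ank3, the ankyrin G that places sodium channels in the membrane, read -1.87, -2.04 and -1.75 against -1.30, -1.0 and -1.33, a difference of -0.68 (SE 0.17) and -0.66 as the row 1 difference. Ano3, of the anoctamin family, was higher with 0.65 (SE 0.19).

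Among genes of calcium, cyclic AMP and vasoactive signalling, 5 of 17 were lower past the limits and 0 higher, with a median difference of -0.22, beside 2.12% lower among all probes. All 5 were on the lower sham list, chosen on these arrays, and of the 12 named by the MI arrays 1 was lower past the limits. Agt, the precursor of the angiotensins, read -1.0, -1.03 and -0.52 against 0.31, -0.05 and 1.27, a difference of -1.36 (SE 0.49). With age as a covariate it was -0.92 and not past the limits. Nor was it past them without miR-150 cKO replicate 1 (-1.28) or 2 (-1.27), or miR-150 fl/fl replicate 3 (-0.98). Pde4dip, or myomegalin, which anchors a phosphodiesterase to the Golgi and sarcomere, read 2.11, 1.73 and 2.32 against 2.75, 3.07 and 3.08. Its difference of -0.91 (SE 0.22) was close to its row 1 difference of -0.86 and past the limits in all 19 alternatives. Ppp2r3a, a regulatory subunit of protein phosphatase 2A, had -0.72 (SE 0.23) and was also on the lower MI list.

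The phosphodiesterase gene Pde4b and the prostaglandin receptor gene Ptger4 had -0.92 and -0.78, each well above background on 1 of 3 miR-150 cKO arrays. Nos1, the neuronal nitric oxide synthase that also sits in the cardiomyocyte, was listed as higher in sham and after MI and had 0.47 (SE 0.17), under the fold limit. The calcium pump gene Atp2a2 and the exchanger gene Slc8a1 had -0.33 and -0.15 and did not pass.

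Transcription factors that steer growth of the heart gave 11 transcripts, 4 of them lower past the limits, beside 2.12% of all probes. All 4 were on the lower sham list, chosen on these arrays, and of the 7 named by the MI arrays 0 were past the limits in either direction. Tead1, a factor that binds the M-CAT element and works with the Hippo pathway's coactivators, read -0.91, -1.25 and -1.04 in miR-150 cKO and -0.18, 0.12 and -0.51 in miR-150 fl/fl. The groups did not overlap, and the difference of -0.88 (SE 0.25) was past the limits in all 19 alternatives. Mkl2, the coactivator of serum response factor now called Mrtfb, had -0.80 (SE 0.26), and Nfatc1, a target of calcineurin, had -0.63 (SE 0.18). Mapk7, which encodes the kinase ERK5, had -0.99 but was well above background on 1 of 3 miR-150 cKO arrays, with a row 1 difference of -0.22. Nkx2-5, Mef2c, Tbx20 and Foxo3, named from the MI arrays, had -0.23, 0.12, 0.14 and 0.15 and did not pass.

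RNA-binding and splicing genes gave 17 transcripts, 3 lower past the limits and 0 higher, beside 2.12% and 0.636% of all probes. Of the 17, 5 were on the sham lists, chosen on these arrays. The MI arrays named 12, and 1 of these was lower past the limits. Rbmxl2, an RNA-binding protein best known from the testis, read -2.14, -2.69 and -1.61 against -0.69, -0.97 and -1.36, a difference of -1.14 (SE 0.35) past the limits in all 19 alternatives. Sf3b2, a subunit of the U2 small nuclear ribonucleoprotein, had -0.74 (SE 0.31) with overlapping groups. The listed Celf1, Prpf31 and Raly had -1.19, -0.51 and 0.57 and did not pass.

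Genes of fuel use gave 18 transcripts with a median difference of -0.28. Of these, 2 were lower and 1 higher past the limits, beside 2.12% and 0.636% of all probes. The sham lists, chosen on these arrays, hold 3 of the 18. The MI arrays named 13, and 1 of these was lower past the limits. Plin4, which coats lipid droplets, read -1.94, -1.81 and -1.62 against -1.0, -1.20 and -1.13. The spread within each group was small, and the difference of -0.68 (SE 0.12) was -0.83 as the row 1 difference. Scd1, the stearoyl-CoA desaturase, was higher with 0.76 (SE 0.25). Fbp2 and Pdp2, a phosphatase that switches on pyruvate dehydrogenase, were listed as lower and had -0.50 each, under the fold limit.

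Of 8 named Wnt pathway genes, 1 was lower past the limits, beside 2.12% of all probes. It was the ligand gene Wnt9a with -1.03, well above background on 1 of 3 miR-150 cKO arrays. Wnt9a was on the lower sham list, chosen on these arrays. Of the 4 named by the MI arrays, 0 were past the limits.

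**Figure D4:**
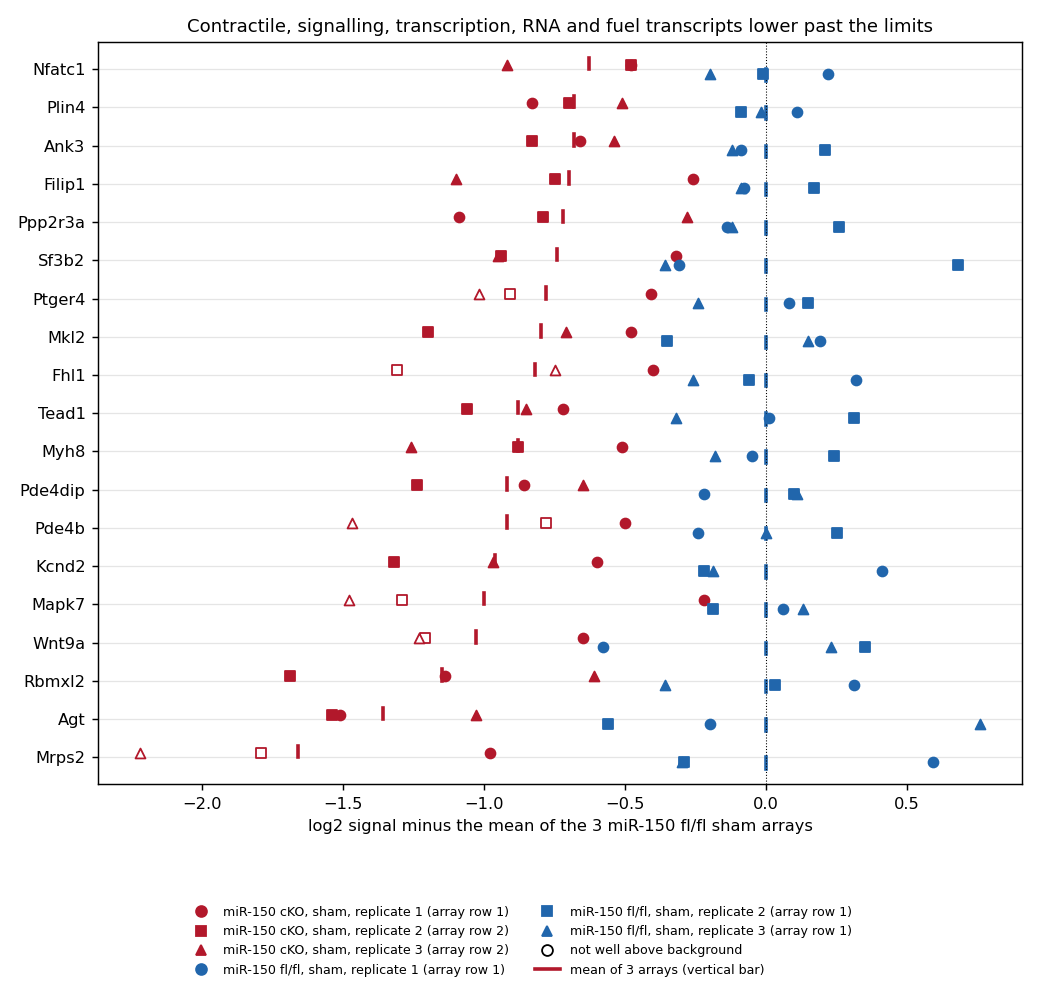
Log2 signal of the reported lower transcripts past the limits from the contractile, channel, signalling, transcription factor, RNA, fuel, Wnt and mitochondrial ribosome lists in each sham heart, minus the mean of the 3 miR-150 fl/fl hearts (points, 1 heart each, red for miR-150 cKO and blue for miR-150 fl/fl; vertical bars, group means; open points, not well above background). The red circle is the array of row 1, and the red squares and triangles of the 2 row 2 arrays lie further left than the circle for Mapk7, Fhl1, Pde4b, Ptger4, Wnt9a and Mrps2, whereas for Agt, Plin4, Ank3, Tead1 and Pde4dip the red points lie together.

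Outside the lists, several transcripts had large differences. Serpinb1c, a relative of the neutrophil elastase inhibitor serpin B1, read -0.27, 0.80 and -1.46 in miR-150 cKO and -2.81, -2.51 and -1.86 in miR-150 fl/fl. Its difference of 2.08 (SE 0.51) was past the limits in all 19 alternatives, and the transcript was also on the higher MI list. Gspt2, a termination factor of translation, read -0.94, -0.78 and -0.86 against -3.09, -1.47 and -2.39, a difference of 1.46 (SE 0.35). Panx1, a channel that releases ATP, read 1.40, 1.57 and 1.22 against 0.05, 0.95 and 0.49, a difference of 0.90 (SE 0.20). Gspt2 and Panx1 were also past the limits in all 19 alternatives, and Panx1, which is named here after its values were seen, is outside the naming rule. Mup15, a major urinary protein made in liver, was well above background on 2 miR-150 cKO arrays and 0 miR-150 fl/fl arrays, and no fold is given for it.

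Of the lower transcripts outside the lists, Dnah7b, a dynein heavy chain of cilia, read -2.83, -3.92 and -3.60 against -1.75, -1.78 and -1.87, and was not well above background in miR-150 cKO replicate 2. Its difference was -1.65 (SE 0.24), with a limma adjusted p of 0.379. Prh1, a salivary proline-rich protein gene, read -3.09, -3.44 and -3.50 against -2.68, -1.46 and -2.13, a difference of -1.25 (SE 0.31). The rest were dim. Olfr514 (-2.66), Zfp26 (-1.75), Mrps2 (-1.67), Csta (-1.35, now Csta1) and Pik3r1 (-1.33) were each well above background on 1 of 3 miR-150 cKO arrays, and Olfr957 (-1.05) on 2 of 3. The row 1 differences of these 6 were -1.95, -0.70, -0.98, -0.78, -0.24 and -0.58.

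The names that came from the MI arrays give a view that the sham arrays did not choose. Of the 427 transcripts listed as higher in miR-150 cKO after MI, 22 (5.15%) passed the limits as higher and 3 (0.70%) as lower in sham, beside 0.636% and 2.12% of all probes. Of the 265 listed as lower after MI, 14 (5.28%) passed as lower and 4 (1.51%) as higher. For 33 of the 427 (7.73%) the 3 miR-150 cKO hearts lay above the 3 controls, and for 4 (0.94%) they lay below. For the 265 these counts were 21 (7.92%) and 12 (4.53%), beside 5.04% and 5.73% of all probes. The share above the controls was thus similar in the 2 lists. The median difference in sham was 0.15 over the 427 and 0.06 over the 265. On miR-150 cKO replicate 1 alone the median of the 427 was 0.00, and on replicates 2 and 3 it was 0.22. The fit shared its estimate of the spread with the MI arrays, and with the 6 sham arrays alone the counts of 22 and 14 were 15 and 7. These were 3.51% of the 427 and 2.64% of the 265, beside 0.487% and 1.43% of all probes.

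The 22 included Myh7, Serpinb1c, Nppa, Sprr1a, Comp, Col8a1, Ankrd1, Mybpc2 and Gdf15 described above. Tmem168 and Cpxm2, a carboxypeptidase-like protein of the matrix, had 1.27 (SE 0.44) and 0.86 (SE 0.38), in each case with overlapping groups. Among the 14, Kcnd2, Ppp2r3a and Filip1 were bright enough to be read on all 6 arrays and did not overlap between the groups. Amy1 (amylase), Tff3 (a trefoil peptide), Tfeb (the master factor of lysosomal genes), Slco1a5 and Cd6 had -1.24, -1.13, -1.05, -0.96 and -0.95. Each of these 5 was well above background on 1 of 3 miR-150 cKO arrays, and the row 1 differences were -0.78, 0.05, -0.26, -0.11 and 0.21.

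Ank1, the ankyrin of the red cell membrane and of muscle, is the remaining gene of the 4 that the study followed and was read by 2 transcripts. One, on the MI list, read -1.51, -0.99 and -1.27 against -0.92, -0.37 and -1.38, a difference of -0.36 (SE 0.30) that did not pass. The other was well above background on 1 miR-150 cKO array and 0 miR-150 fl/fl arrays, and no fold is given for it.

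Named mostly from the MI arrays, genes of the mitochondria and of the ribosome showed small differences in sham. Of 12 transcripts of the respiratory chain and ATP synthase, 10 had a difference above 0 with a median of 0.18, and 0 were past the limits. All 10 transcripts of the cytosolic ribosome were above 0 with a median of 0.28, and 0 were past the limits. The mean log2 signal of the ribosome list was 3.20, 3.39 and 3.42 in miR-150 cKO and 2.58, 3.37 and 3.31 in miR-150 fl/fl, so that replicate 1 of the controls stood below the other 5 hearts. Of 10 transcripts of the mitochondrial ribosome 1 was lower past the limits, beside 2.12% of all probes. It was the dim Mrps2, which was on the lower sham list, chosen on these arrays.

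**Figure D5:**
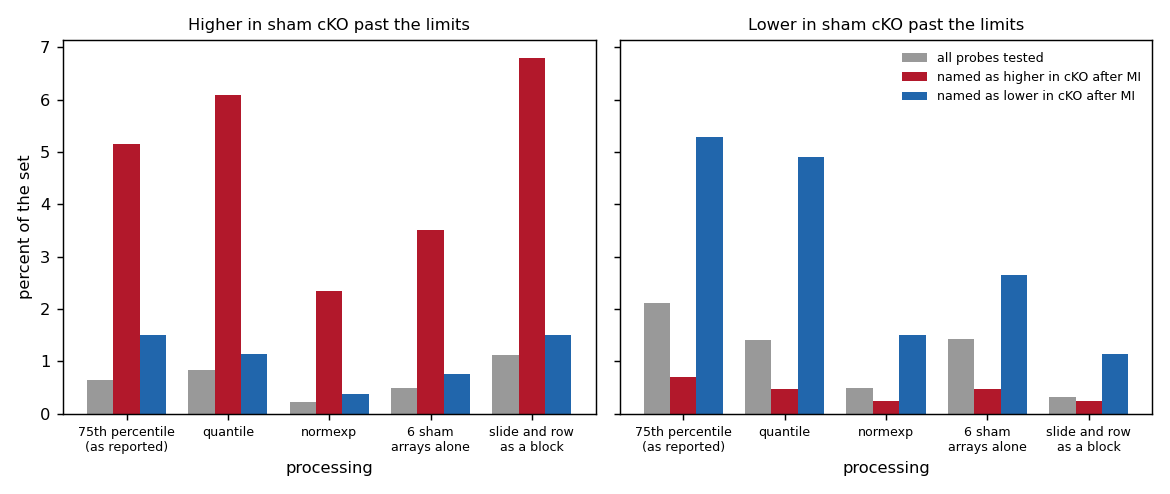
Percent of transcripts that were higher (left) and lower (right) in sham miR-150 cKO past the limits, for all probes tested (grey), those named as higher (red) and those named as lower (blue) in miR-150 cKO after MI, under the reported processing and 4 alternatives (bars start at 0). The red bar for higher transcripts is 5.15% beside 0.636% for all probes as reported, and 6.79% beside 1.12% with the slide and row block, while the blue bar for lower transcripts is 5.28% beside 2.12% as reported and 1.13% beside 0.308%.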

How the data were processed

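The authors deposited, for each of 12 single-colour Agilent arrays, spot intensity on a linear scale after background subtraction (Agilent Feature Extraction 11.0.1.1), and a table of log2 values normalized between arrays. Values were log2 of the intensity less that array's 75th percentile. Of 60819 probes, 54225 that were well above background on at least 3 arrays were fitted. Flagged spots (435, 0.0593%) were left out, and 0 were saturated. limma 3.58.1 in R 4.3.3 fitted the 4 group means on 12 arrays (8 residual degrees of freedom, 10.4 with the prior), and the contrast between genotypes in sham was used. Of the sham arrays, correlations were 0.978 to 0.991. Precision is set by how few arrays there are. The method was tested on simulated data. Figures were drawn with Python and matplotlib.

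Names come from 963 entries of a supplementary list, whose fold and p each matched a single probe of the deposited log2 values within 2e-05. Matching accessions of 879 of 892 probes were found in RefSeq. Columns of the authors' own comparisons served as this key and are not printed. Named were list members from the sham list, the 10 largest differences each way past the limits without overlap, the 4 genes the study followed, and the 5 largest each way among names of the MI lists alone. The genes, lists and tests were chosen with earlier results of these data known. Alternatives are in the closing section. Same-numbered mice were checked for pairing and did not deviate together. The deposited files state build mm9, and none of their coordinates are printed. The coordinates printed belong to RefSeq sequences on GRCm38.p6. A few list members are counted in their lists but not reported here by name.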

Additional observations from a re-analysis of the deposited data

Results flagged for a closer look

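For 9 named transcripts past the limits in sham, each sham miR-150 cKO heart lay on one side of its controls and each miR-150 cKO heart after MI lay on the other. The interaction of genotype and surgery, tested in the same limma fit, had no adjusted p under 0.05 for any of them, and several were named because of the MI arrays, all 3 of whose miR-150 cKO arrays were on another slide. As the log2 difference after MI minus that in sham, Mup15 had -6.14, Nts (neurotensin) -1.51, Anxa1 (annexin A1) -1.11 and Dpt -1.08, all higher in miR-150 cKO in sham and lower after MI. The value of Mup15 has no exact size, since none of the 3 controls in sham had a signal well above background. Zfp26 had 2.48, Cdk19, Dido1 and Dnm3 each had 1.38 and Xkrx 0.91, all lower in sham and higher after MI. The adjusted p values lay between 0.189 and 0.262.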

How the results depend on the processing

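The named transcripts that were past the limits or on a sham list kept their direction under the 19 alternatives, except that Cd6 had 0.21 and Tff3 had 0.05 with slide and row as a block, and that Nek3, which is on the higher sham list with a difference of 0.42 that did not pass, had -0.01 with normexp. Over these 181 transcripts, Ank1 included, and all alternatives, 2661 values kept their side of the limits, 548 lost it and 117 gained it. Higher transcripts numbered 120 with normexp, 810 with no filter on dim probes, 104 with the methods' unpaired 2-tailed test, 1034 with age as a covariate and 609 with the slide and row block. Lower transcripts numbered 765 with quantile normalization, 262 with normexp, 759 with the authors' values, 468 on probes well above background on all 6 arrays, 308 with the methods' test, 2771 with age and 167 with the slide and row block. Quantile normalization of the probes well above background on all 6 arrays, chosen after seeing the data, gave 415. With sex as a covariate 351 were higher and 1238 lower, and with the 75th percentile taken over probes well above background on all arrays 299 and 1316. Calls after adjustment were 1 with the authors' values, 1 with no filter and 5 with the slide and row block.

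Of the higher MI names, 10 (2.34%) were higher past the limits with normexp, 7 (1.64%) with the methods' test and 37 (8.67%) with age. The shares of all probes were 0.221%, 0.192% and 1.91%. The lower MI names, counted next, passed at 1.51% with normexp and 0.377% with the methods' test, beside 0.483% and 0.568% of all probes. On probes above background on all 6 arrays their share was 2.59%, beside 1.06%. Of the lower MI names, 4 were lower with normexp, 6 on probes above background on all 6 arrays (7 with quantile normalization of these), 7 with the 6 sham arrays alone, 1 with the methods' test and 3 with the slide and row block. Of the sham names, 32 were higher and 19 lower with normexp, 37 and 18 with the slide and row block, and 28 lower on probes above background on all 6 arrays.

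Leaving out 1 sham array gave 194 (without miR-150 fl/fl replicate 1) to 861 (without miR-150 fl/fl replicate 2) higher and 434 (without miR-150 cKO replicate 2) to 3368 (without miR-150 cKO replicate 1) lower transcripts, and 0 to 302 calls after adjustment, the latter without miR-150 cKO replicate 1. Without that array 819 were higher, and without miR-150 fl/fl replicate 1 2102 were lower. The MI names gave 17 to 37 higher and 8 to 21 lower, and the sham names 37 to 58 and 38 to 45. For the MI names, 17 and 37 were 3.98% and 8.67%, beside 0.358% and 0.87% of all probes. The 8 and 21 were 3.02% and 7.92%, beside 1.95% and 3.88%. With the replicate number as a block 355 were higher and 1132 lower, although same-numbered mice correlated by 0.174, 0.023 and 0.085 and the numbers do not pair them. The cause of these shifts was not tested. Of the lower transcripts, 39.2% were well above background on all 6 arrays.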
